A study of Arabidopsis thaliana with 6 samples.

Results

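The 7 genes described here build or position the Casparian strip in Arabidopsis roots: CASP1 (AT2G36100), CASP2 (AT3G11550), CASP4 (AT5G06200), CASP5 (AT5G15290), MYB36 (AT5G57620), ESB1 (AT2G28670) and SGN3 (AT4G20140, also named GSO1). They were chosen by locus, all 7 were measured, and they are 7 of the 32627 loci on the arrays. RNA came from whole roots of seedlings carrying pER8::OBP4 or pER8::GFP, in which estradiol switches on OBP4, a transcription factor of the DOF family, or GFP. Both lines were grown for 5 days, then kept for 8 h on medium with 10 µM estradiol, so the GFP control roots received the inducer as well. Each line had 3 one-colour NimbleGen arrays, which the labels give as biological replicates from separate culture plates. The labels state neither the number of independent transgenic lines nor the accession. Roots without estradiol were not analysed here, so a difference between the 2 lines that was there before induction cannot be told apart from an effect of OBP4.

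The Casparian strip is a band of lignin in the walls of endodermal cells that seals the space between them, so that water and minerals must cross a membrane on their way to the vascular tissue. CASP proteins span the plasma membrane and gather in a belt where the band forms, and they recruit enzymes that make lignin there. MYB36 is the transcription factor that switches on the CASP genes and other strip genes, ESB1 is a dirigent-domain protein needed for an unbroken band, and SGN3 is a receptor kinase that senses peptides from the stele and drives the sealing of gaps.

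On the scale used here, RMA values in log2, array medians over all loci lay between 11.60 and 11.65, and arrays correlated at 0.982 to 0.995 within a group and at 0.970 to 0.985 between groups. OBP4 itself read 15.74, 15.83 and 15.86 in OBP4 roots, against 14.37, 14.78 and 14.48 in control roots, and every OBP4 array was above every control array. Over all loci, 13.7% passed limma's test at an adjusted p under 0.05, with 5.23% higher and 8.48% lower in OBP4 roots, and the groups did not overlap at 36.9% of loci. The median difference of all loci was 0.02.

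CASP4 was lower in OBP4 roots, and CASP1, CASP2 and CASP5 did not pass the test. CASP4 read 14.38, 14.28 and 14.46 in OBP4 roots, against 15.03, 15.01 and 14.95 in control roots. Its highest OBP4 array lay below its lowest control array, and both groups were tight. The means were 14.374 ± 0.093 and 14.999 ± 0.042 (SD, n = 3 each) for OBP4 and control roots, a difference of -0.62 ± 0.07 (SE) with adjusted p = 0.00556. On a linear scale this left 64.9% of the control signal, with a 95% confidence interval of 57.0% to 73.8%. The call held in all 6 fits that left out 1 array, with adjusted p of 0.0158 to 0.0299. It was lost with the replicate number as a block, with adjusted p = 0.0612. In a second deposited table, in which OBP4 itself differed by 0.0067 ± 0.089 (SE), CASP4 differed by -0.48 with adjusted p = 0.198. On the same arrays the mean of 4 epidermis markers was lower too, at 13.03 to 13.38 in OBP4 roots, against 13.92 to 14.04 in control roots. Means of root cap and stele markers, given below, were also lower, while those of cortex and meristem markers overlapped. The mean of the 7 genes was 14.77 to 14.86 in OBP4 roots, against 14.75 to 14.87 in control roots. The part of these markers in the CASP4 difference was not tested. The samples are whole roots. A change in the number of expressing cells and one in RNA per cell cannot be told apart, here or at any gene below.

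**Figure D1:**
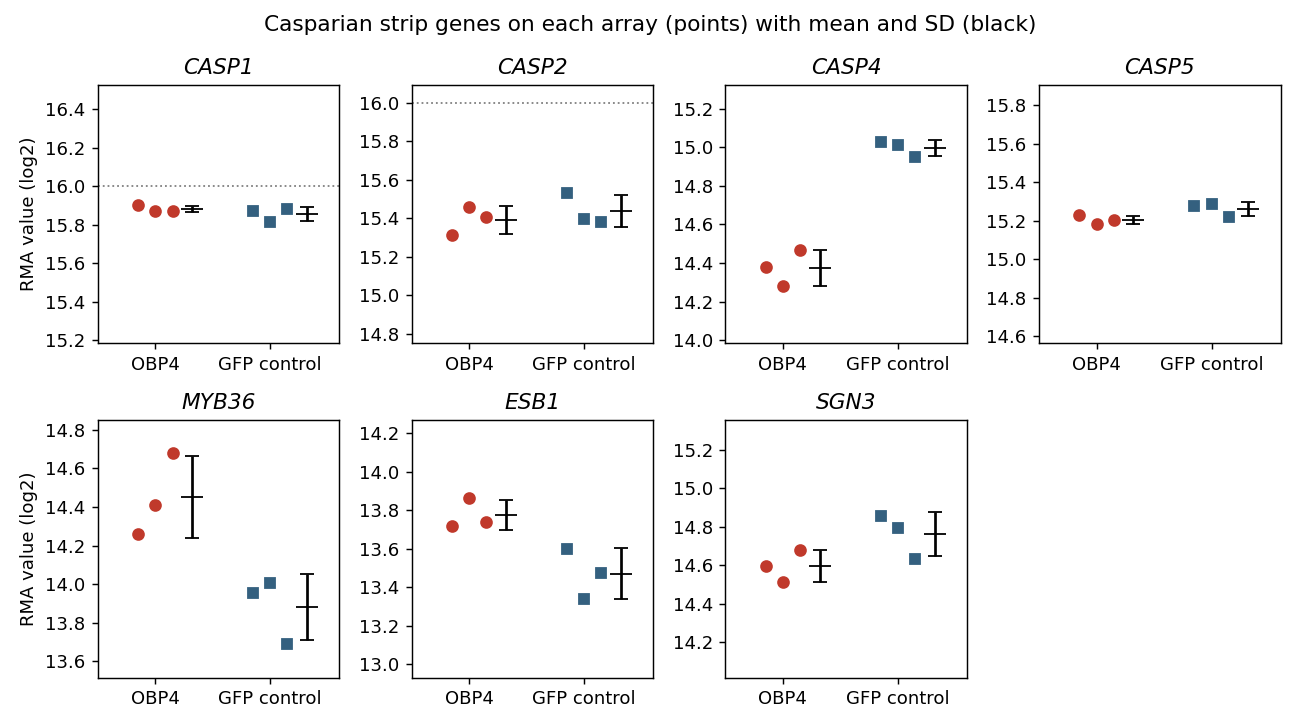
RMA values (log2, vertical axis, the same span in each panel) of the 7 Casparian strip genes on 3 OBP4 arrays (red circles) and 3 GFP control arrays (blue squares), with the mean and SD in black and the scale's ceiling of 16 dotted. CASP4 sits between 14.28 and 14.46 in OBP4 roots, below all its control values, and MYB36 and ESB1 sit above theirs.

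CASP1 read 15.90, 15.87 and 15.87 in OBP4 roots, against 15.87, 15.81 and 15.88 in control roots. The groups overlapped, the difference was 0.028 ± 0.058 (SE) and adjusted p = 0.797. CASP2 read 15.31, 15.46 and 15.40 in OBP4 roots, against 15.53, 15.40 and 15.38 in control roots. Its groups overlapped as well, with a difference of -0.043 ± 0.077 (SE) and adjusted p = 0.759. CASP5 read 15.23, 15.18 and 15.20 in OBP4 roots, against 15.28, 15.29 and 15.22 in control roots. One OBP4 array overlapped the control arrays, the difference was -0.056 ± 0.058 (SE) and adjusted p = 0.588. The 95% confidence intervals of these 3 genes ran from 92.1% to 113% of the control signal for CASP1, 84.9% to 111% for CASP2 and 86.9% to 106% for CASP5. None of the intervals, which are not adjusted for the number of loci, reached that of CASP4, but whether CASP4 differed from its relatives in its response was not tested.

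**Figure D2:**
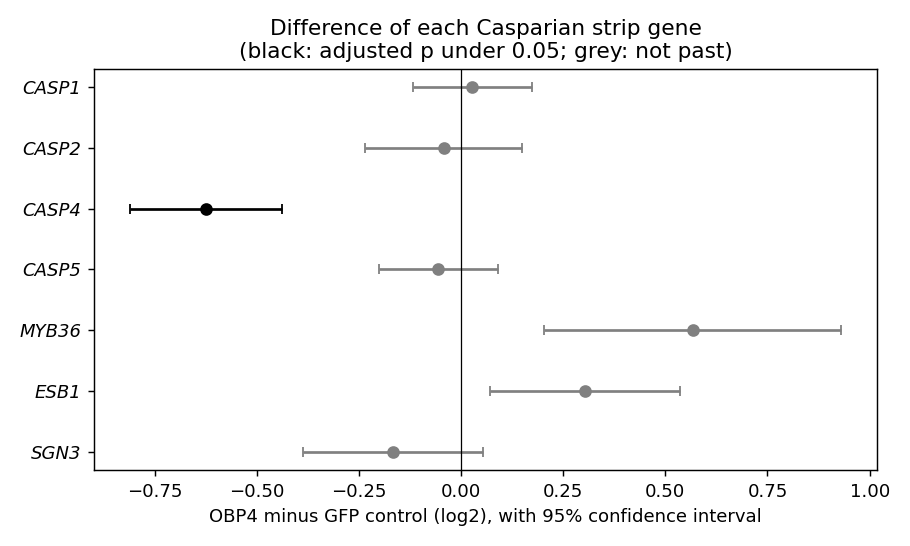
Difference of OBP4 minus GFP control (log2, horizontal axis) for each of the 7 genes, as points with the 95% confidence interval of the limma fit, black where the adjusted p was under 0.05. CASP4 stands at -0.62 with an interval from -0.81 to -0.44, and CASP1, CASP2 and CASP5 lie between -0.056 and 0.028.

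How much of a change these arrays can show depends on the level. The values end at 15.93, just below 16, the top of a 16-bit scan, and differences narrow towards it. Of loci with a control mean of at least 15, as CASP1, CASP2 and CASP5 have, 7.05% passed the test, against 14.5% of loci below that level. CASP1 reached 15.90, and of 122 loci with a mean within 0.1 of its mean over the 6 arrays, 0.0% passed the test, the largest difference among them being 0.12. A locus that fell clearly would have left this band, so the share sets no limit on a fall of CASP1. The interval of CASP1 given above is for the signal on this narrowed scale. How far it bounds a fall in CASP1 RNA was not tested. Among loci as close to CASP2, 4.07% passed, and to CASP5 8.03%. The smallest difference in size that passed was 0.25 around CASP2 and 0.25 around CASP5. The largest differences there were 0.70 and 1.27, so changes could still pass at these levels. Around CASP4 the share was 16.9%, with 0.24 as the smallest difference that passed among 853 loci. For MYB36, ESB1 and SGN3 the shares were 19.0%, 19.7% and 17.0%. The level of ESB1 is an average of 2 gene models with control means of 15.73 and 11.21, so its share describes neither model.

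**Figure D3:**
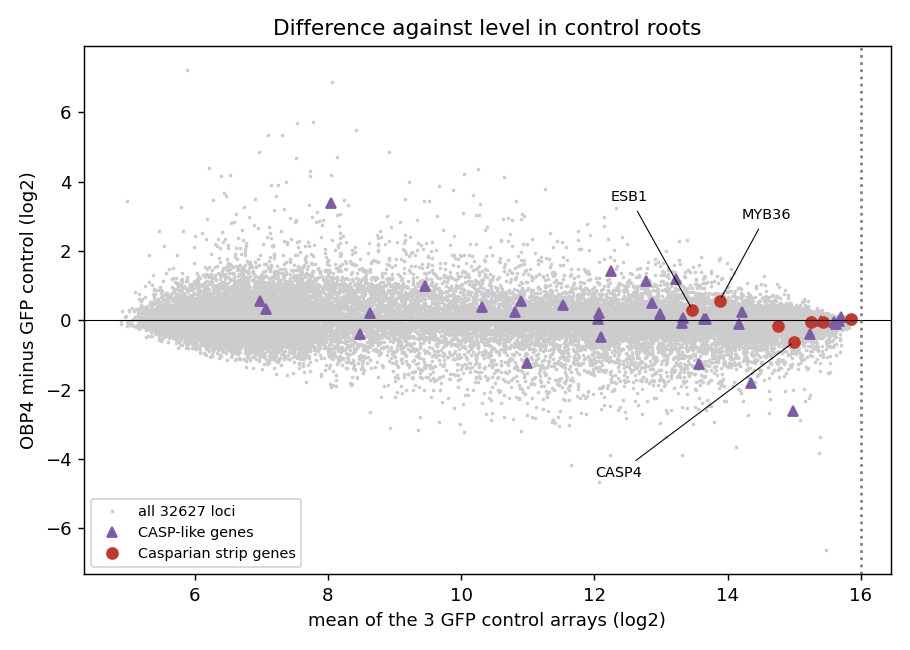
Difference of OBP4 minus GFP control (log2, vertical axis) against the mean of the 3 control arrays (log2, horizontal axis) for all 32627 loci (grey), CASP-like genes (violet triangles) and the 7 Casparian strip genes (red circles). The cloud narrows towards the dotted ceiling of 16, where CASP1, CASP2 and CASP5 lie.

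MYB36, the activator of the CASP genes, was higher on every OBP4 array than on every control array but did not pass the test. It read 14.26, 14.41 and 14.68 in OBP4 roots, against 13.95, 14.01 and 13.69 in control roots. The spread within each group, with means of 14.45 ± 0.21 and 13.88 ± 0.17 (SD, n = 3 each) in OBP4 and control roots, was larger than for CASP4. The difference was 0.57 ± 0.15 (SE), with a 95% confidence interval of 0.20 to 0.93 and adjusted p = 0.0617. The adjusted p was 0.0402 without the dimmest 25% of loci, 0.0183 without the dimmest 50%, 0.0106 with a trended and robust variance and 0.0395 with array weights. It was 0.0522 with cyclic loess, 0.0624 with quantile normalization, 0.0700 with median centring and 0.195 with the replicate number as a block. In the second deposited table MYB36 differed by -0.023, with adjusted p = 0.932. In all 6 fits without 1 array the adjusted p stayed above 0.05, from 0.0661 to 0.153. On the 6 arrays the differences of MYB36 and CASP4 were thus of opposite sign, though that of MYB36 did not pass. Groups did not overlap at 36.9% of all loci. CASP1, CASP2 and CASP5 differed by 0.028, -0.043 and -0.056. Whether MYB36 and the CASP genes differed in their response was not tested.

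ESB1 is represented by 2 gene models, which did not read alike. Averaged, it read 13.72, 13.86 and 13.74 in OBP4 roots, against 13.60, 13.34 and 13.47 in control roots, with no overlap, a difference of 0.30 ± 0.09 (SE) and adjusted p = 0.0992. The adjusted p was 0.0320 without the dimmest 50% of loci and 0.0412 with a trended and robust variance. It was 0.254 with the replicate number as a block, and 0.0965 to 0.238 in the 6 fits without 1 array. Model AT2G28670.1 (chromosome 2, 12300259 to 12301790, reverse strand) read 15.78, 15.78 and 15.73 in OBP4 roots, against 15.77, 15.67 and 15.75 in control roots. This model lies close to the ceiling, and its difference was 0.032 ± 0.060 (SE), with adjusted p = 0.768 in a fit over all gene models. Model AT2G28670.2 (12300265 to 12302358 on the same strand), which extends further upstream, read 11.665, 11.948 and 11.740 in OBP4 roots, against 11.434, 11.003 and 11.198 in control roots. Its difference was 0.57 ± 0.14 (SE), with adjusted p = 0.0543 in the same fit, so the difference of the averaged gene came almost wholly from this dimmer model. Which transcripts its 4 probes detect was not tested.

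SGN3, the receptor kinase, read 14.60, 14.52 and 14.68 in OBP4 roots, against 14.86, 14.80 and 14.64 in control roots. The groups overlapped through OBP4 replicate 3 and control replicate 3, and the difference was -0.17 ± 0.09 (SE), with adjusted p = 0.289 and a 95% confidence interval of 76.5% to 104% of the control signal. Of the 7 genes, 1 passed the test, which is 14.3%, against 13.7% of all loci, and 3 had groups that did not overlap, which is 42.9%, against 36.9%. The median difference of the 7 genes was -0.043.

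On the array annotation the 4 CASP genes named here share the description of integral membrane family proteins, and they lie apart in the genome. The coordinates are those of that annotation, and no label or header names its genome build. CASP1 lies at 15159591 to 15160750 on the reverse strand of chromosome 2 and CASP2 at 3638195 to 3639197 on the forward strand of chromosome 3. CASP4 (1877333 to 1878116) and CASP5 (4967011 to 4968035) are on the forward strand of chromosome 5, as is MYB36 (23334817 to 23336566). SGN3 lies at 10884197 to 10888270 on the forward strand of chromosome 4. Each gene model was read by 3 or 4 probes. Their sequences were not used here, so signal shared between related CASP genes was not tested.

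The wider CASP-like family changed in both directions. These genes encode relatives of the CASP proteins with the same membrane-spanning fold, many of them active outside the endodermis. Of the 34 CASP-like genes, all of them measured, 5 rose, 6 fell and 23 did not pass the test, so that 32.4% passed, against 13.7% of all loci. The median of their differences was 0.07. The family was gathered by name, and no test of the list was made. Of 6 CASP-like genes with a control mean of at least 15, 1 passed, and of 28 below that level 10 did.

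CASPL4D1 fell furthest. It read 12.13, 12.63 and 12.33 in OBP4 roots, against 14.95, 14.90 and 15.11 in control roots, which left 16.2% of the control signal (difference -2.62 ± 0.15, SE, adjusted p = 6.23e-04). CASPL4D2 read 12.42, 12.63 and 12.58 in OBP4 roots, against 14.34, 14.30 and 14.39 in control roots, a difference of -1.80 ± 0.08 (SE) with adjusted p = 4.90e-04. The 2 genes are neighbours on the reverse strand of chromosome 2, at 16498486 to 16499471 and 16495875 to 16496995, and both fell by over 1 on the log2 scale without any overlap between groups. Whether their probes share signal was not tested. CASPL2C1 fell by 1.28 ± 0.16 (SE) and CASPL5C1 by 1.24 ± 0.11 (SE), both also passing in all 6 fits without 1 array.

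CASPL1E2 rose furthest, and with the widest spread. It read 12.57, 10.63 and 11.09 in OBP4 roots, against 7.63, 8.25 and 8.23 in control roots, a difference of 3.39 ± 0.53 (SE) with adjusted p = 0.0138. The groups were far apart, but the OBP4 arrays differed among themselves by more than 1.5 on the log2 scale, and the adjusted p was 0.0577 without control replicate 1 and 0.0523 without control replicate 3. Its neighbours on chromosome 4 did not pass: CASPL1D1 differed by 0.086 ± 0.059 (SE), near the ceiling, and CASPL1E1 by 0.54 ± 0.36 (SE). CASPL4A2 read 13.58, 13.68 and 13.75 in OBP4 roots, against 12.36, 12.13 and 12.28 in control roots, a rise of 1.41 ± 0.09 (SE) with adjusted p = 8.29e-04. The other 5 CASP-like genes that passed, named after their values were seen, had differences from -0.49 to 1.19. Among these, CASPL1C1 (1.19) and CASPL4C1 (1.14) passed in all 6 fits without 1 array. CASPL1A1 (-0.40; adjusted p of 0.0632 to 0.119) and CASPL5C2 (0.44; adjusted p of 0.0634 to 0.129) passed in 0 of these fits. CASPL4B1 (-0.49) passed in 2, without control replicate 1 (0.0370) and OBP4 replicate 2 (0.0481), and its highest adjusted p was 0.0788.

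**Figure D4:**
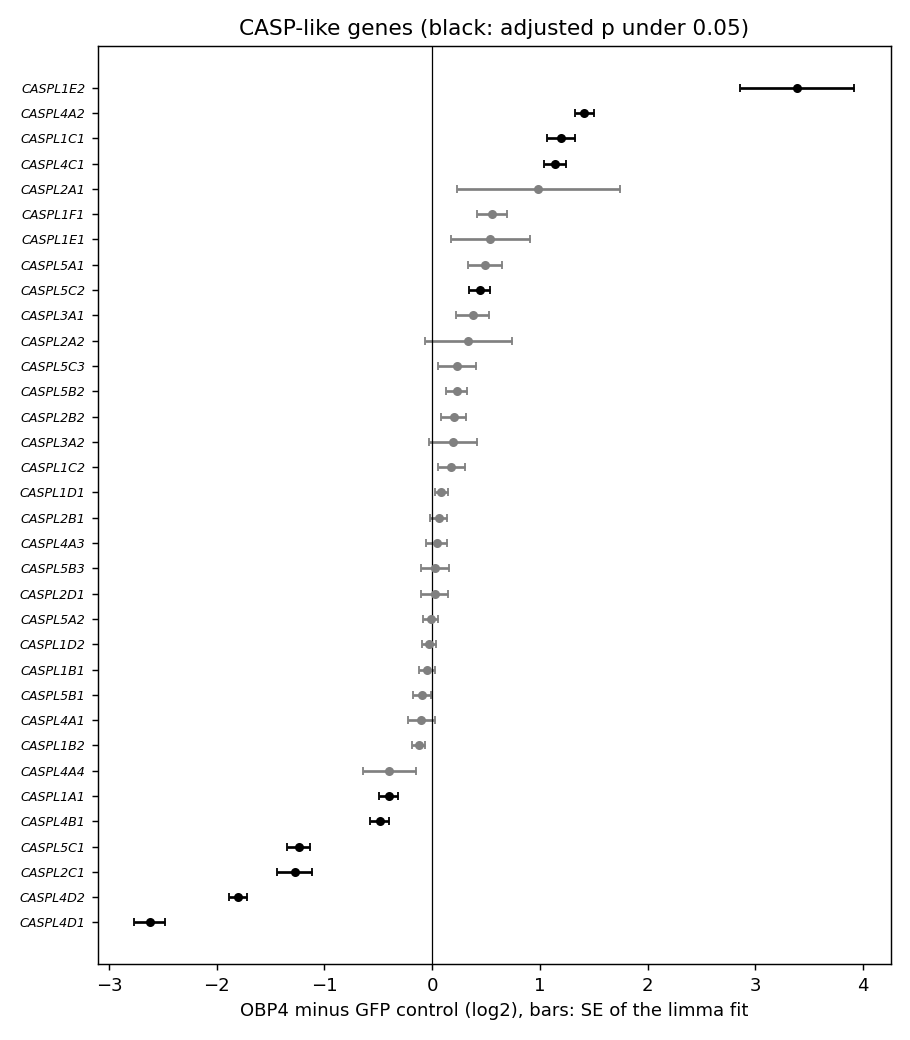
Difference of OBP4 minus GFP control (log2, horizontal axis) for the 34 CASP-like genes, ordered by size, as points with the SE of the limma fit, black where the adjusted p was under 0.05. The range runs from -2.62 in CASPL4D1 to 3.39 in CASPL1E2, with 5 black points to the right of 0 and 6 to the left.

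Among other genes of the Casparian strip pathway the share that passed was near that of all loci. Of the 24 in the list, 1 rose, 1 fell and 22 did not pass, so that 8.33% passed, against 13.7% of all loci. With a trended and robust variance 4 were higher and 4 lower, and without the dimmest 50% of loci 3 were higher and 4 lower. Of these genes, 12 had a control mean of at least 15. The median difference was 0.03. AT2G16385, which the array annotates as an unknown protein, read 11.12, 11.51 and 11.87 in OBP4 roots, against 10.25, 10.60 and 10.42 in control roots. The rise was 1.07 ± 0.21 (SE), with adjusted p = 0.0291, and it passed in 1 of the 6 fits without 1 array, that without OBP4 replicate 1 (0.0199), with 0.0553 to 0.0981 in the others. AT4G11290, annotated as a putative peroxidase, read 15.07, 15.06 and 15.01 in OBP4 roots, against 15.45, 15.46 and 15.40 in control roots. It fell by 0.39 ± 0.06 (SE), with adjusted p = 0.0123, and 0.0510 without control replicate 1.

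The following genes did not pass and are named for their role, with their values known. SCR, the transcription factor that sets endodermal identity, read 14.40, 14.36 and 14.45 in OBP4 roots, against 14.57, 14.76 and 14.79 in control roots (-0.30 ± 0.08, SE, adjusted p = 0.0746). Its groups did not overlap. SHR, which moves from the stele and acts with SCR, differed by 0.022 ± 0.063 (SE), and MYB68, a relative of MYB36, by 0.51 ± 0.16 (SE, adjusted p = 0.10). On the signalling side, TPST, which adds sulfate to the peptide ligands of SGN3, differed by 0.29 ± 0.08 (SE, adjusted p = 0.0680). GSO2, the paralogue of SGN3, differed by -0.26 ± 0.11 (SE, adjusted p = 0.186). RBOHF, the oxidase that supplies superoxide for lignin formation, differed by 0.27 ± 0.08 (SE, adjusted p = 0.0803). Among genes that act at the strip itself, the peroxidase gene PER64, the laccase gene LAC3 and the uclacyanin gene UCC1 differed by 0.049, 0.017 and 0.060, all at levels above 15.5. EXO70A1, which positions the CASP belt, differed by 0.029 ± 0.079 (SE).

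**Figure D5:**
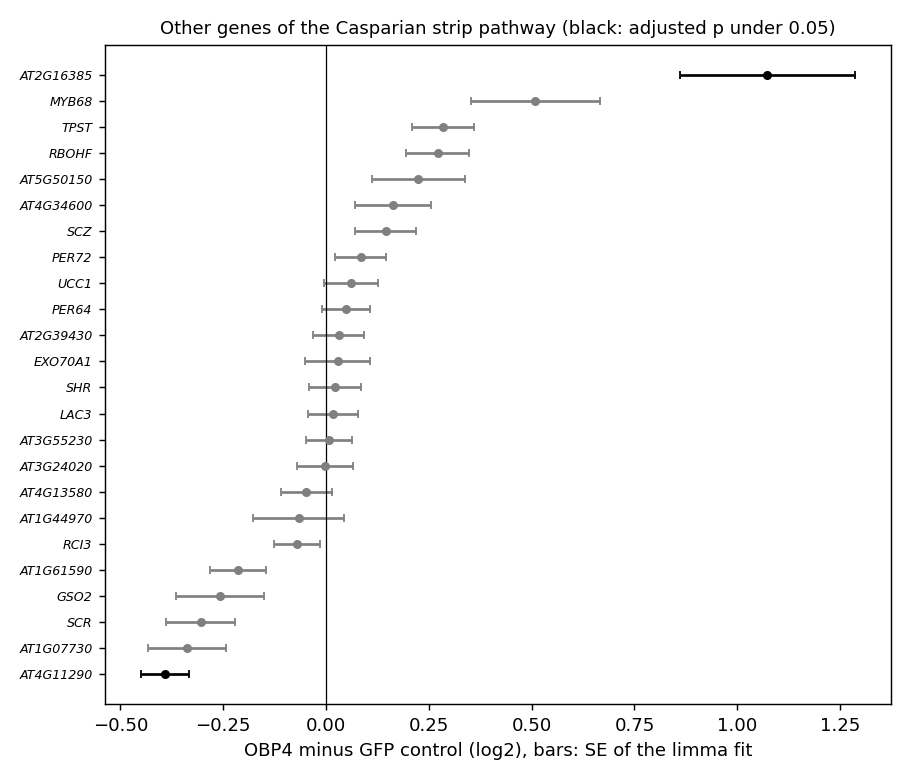
Difference of OBP4 minus GFP control (log2, horizontal axis) for the 24 other genes of the Casparian strip pathway, as points with the SE of the limma fit, black where the adjusted p was under 0.05. AT2G16385 stands at 1.07 and AT4G11290 at -0.39, and the other 22 genes lie between them in grey.

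Suberin is the second barrier of the endodermis, a polyester laid down after the strip. Of 21 suberin genes, 2 rose, 0 fell and 19 did not pass, so that 9.52% passed, against 13.7% of all loci, with a median difference of 0.07. MYB41, an activator of suberin synthesis, read 14.52, 14.09 and 14.31 in OBP4 roots, against 12.82, 12.97 and 12.57 in control roots, with adjusted p = 0.00345. GPAT7, an acyltransferase related to GPAT5 of suberin synthesis, read 14.16, 14.08 and 14.06 in OBP4 roots, against 13.40, 13.57 and 13.45 in control roots, with adjusted p = 0.00525. Both passed in all 6 fits without 1 array. At an unadjusted p under 0.05, 3 of the 21 genes passed, and 28.5% of all loci did.

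None of the 15 genes of monolignol synthesis, which supplies the building blocks of lignin, passed limma's test. At an unadjusted p under 0.05, 2 of the 15 passed, and 28.5% of all loci did. Here too, 12 genes had a control mean of at least 15, a level at which 7.05% of loci passed, against 13.7% of all loci, and the median difference was 0.0033. F5H (FAH1), the hydroxylase that leads to syringyl lignin, had the largest difference of the list, chosen after its values were seen. It read 13.06, 12.03 and 12.13 in OBP4 roots, against 13.53, 13.71 and 13.56 in control roots. The OBP4 arrays were all lower but spread widely, and the difference was -1.19 ± 0.29 (SE), with adjusted p = 0.0526.

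Some markers of other root cell types moved between the groups as well. All 4 epidermis markers fell, COBL9 (-1.12), EXPA7 (-0.61), WER (-0.53) and GL2 (-0.74), without overlap between groups. Of all loci, 8.48% fell and 36.9% had groups that did not overlap. In fits without 1 array, COBL9 and EXPA7 did not pass without control replicate 1 or 3, GL2 passed only without control replicate 1 or OBP4 replicate 2, and WER only without control replicate 1, with adjusted p up to 0.101. Of 3 root cap markers, BRN1 (-1.29) and BRN2 (-0.65) fell, with list means of 11.96 to 12.16 in OBP4 roots, against 12.66 to 12.90 in control roots. Of 6 stele markers, 1 passed, which is 16.7%, near the 13.7% of all loci. It was SKOR, a potassium channel gene, which fell by 1.32. The stele differences ran from -1.32 to -0.0059, with a median of -0.15. Their list means were 13.06 to 13.13 in OBP4 roots, against 13.43 to 13.46 in control roots, and SKOR weighs heavily in these means. None of the 2 cortex markers (list means of 11.78 to 13.06 in OBP4 roots, against 12.08 to 12.57 in control roots) or the 4 meristem markers (11.85 to 12.06 in OBP4 roots, against 11.82 to 12.17 in control roots) passed limma's test. At an unadjusted p under 0.05, 1 cortex marker and 0 meristem markers passed, and 28.5% of all loci did. The 2 cortex markers went in opposite directions, AT1G09750 by -0.81 ± 0.61 (SE) and AT1G62500 by 0.68 ± 0.22 (SE). On the OBP4 arrays AT1G09750 read 14.62, 12.47 and 12.57, against 13.96, 13.91 and 14.22 on the control arrays. AT1G09750 passed in 1 of the 6 fits without 1 array (lowest adjusted p 0.00716) and AT1G62500 in 0. The part of these changes in the differences of the Casparian strip genes was not tested.

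The 11 photosynthesis genes, used as markers of shoot tissue, had list means of 13.57, 9.59 and 12.34 on OBP4 arrays 1 to 3. On control arrays 1 to 3 they were 10.73, 10.65 and 11.74. Of the 11 genes 0 passed, against 13.7% of all loci. Their differences ran from -0.80 to 2.35, with a median of 0.81, against 0.02 for all loci. With the OBP4 arrays so far apart, the count does not show that the groups were alike. With the mean of the photosynthesis genes as a covariate, CASP4 differed by -0.64 ± 0.08 (SE), with adjusted p = 0.0155, and MYB36 by 0.60 ± 0.16 (SE), with adjusted p = 0.0896. CASPL1E2, whose OBP4 values followed the same order as the photosynthesis mean, differed by 3.06 ± 0.35 (SE), with adjusted p = 0.0120. AT2G16385 had adjusted p = 0.0512, CASPL1A1 0.0749, CASPL4B1 0.0505, CASPL5C2 0.0830 and WER 0.0621 in that fit. Their differences moved little. They were 1.12, -0.37, -0.46, 0.44 and -0.51 with the covariate, against 1.07, -0.40, -0.49, 0.44 and -0.53 without it. Each SE was larger with the covariate, which also takes up a degree of freedom.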

How the data were processed

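Values are those of 6 arrays, 3 of OBP4 and 3 of control roots. Per the labels' protocols, cDNA made from 10 µg of root RNA carried the Cy3 dye. The authors deposited log2 values of 37118 gene models per array, made by RMA (background correction, normalization and probe summary) as the tables are titled, per the file headers. The software and the build were not given in the sources. A second deposited table of log2 values, of unstated normalization, was used as an alternative only.

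Gene models of a locus were averaged. A linear model was fitted per locus in limma 3.58.1 (lmFit, then eBayes; R 4.3.3). Its two-sided p-values were adjusted by Benjamini and Hochberg's method across 32627 loci, and 0.05 was the threshold. Differences are OBP4 minus control. No arrays held identical values, and 3 arrays a group limit the precision. The fit was tested on simulated data. Gene symbols are those of NCBI (TAIR10.1), which covered 98.1% of loci, or else of the array annotation.

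The members and lists were chosen with earlier results of these data known. The rule named the members and up to 6 genes past the threshold per list. The other 5 CASP-like genes that passed, and genes that did not pass, were named after their values were seen. A further item and the results that need it are not reported here. CASP-like genes are loci outside the members whose NCBI names or array annotation hold CASPL, CASP-like or Casparian strip membrane. Figures were drawn with matplotlib 3.10.9. Alternatives were renormalization, filters on dim loci, other variance models, array weights, a replicate block, the brightest model per locus, a photosynthesis covariate, stricter thresholds, the second table and leaving out each array. Separate fits of the 2 ESB1 models were added after seeing the data.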

Additional observations from a re-analysis of the deposited data

How the results depend on the processing

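Only 3 arrays a group and the compression near 16 limit what these data show for CASP1, CASP2, CASP5 and the lignin enzymes. The compression was strongest at the level of CASP1. Around CASP2 and CASP5, 4.07% and 8.03% of loci still passed. CASP4 kept its sign under all alternatives and an adjusted p under 0.05 under all but 2. The second deposited table did not follow the arrays: deviations of each locus from its mean correlated at -0.0792 to 0.214 between a column and its own array, and OBP4 itself differed by 0.0067 ± 0.089 (SE, adjusted p = 0.980), so its values are not read as changes.

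In that table CASP4 differed by -0.48 (adjusted p = 0.198), CASP5 by -0.88 (0.0256), CASP1 by -0.030, MYB36 by -0.023 and ESB1 by -0.10. It called 1034 loci higher and 778 lower, 0 and 0 genes of the strip pathway, 2 and 3 CASP-like genes and 0 and 1 suberin genes.

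Deviations of same-numbered arrays from their group means correlated at -0.197, 0.0930 and -0.170 for numbers 1 to 3. Between arrays of unlike number the correlations ran from -0.272 to 0.360. With 3 arrays a group these values cannot show whether same-numbered arrays were paired, and no label states it. With the replicate block, CASP4 stayed at -0.62 with adjusted p = 0.0612. The block gave 588 loci higher and 1114 lower, 0 members lower, 0 and 0 pathway genes, 2 CASP-like genes higher and 1 suberin gene higher.

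MYB36 passed at 0.57 without the dimmest 25% or 50% of loci and with a trended and robust variance, and at 0.65 with array weights. ESB1 passed at 0.30 without the dimmest 50% and with the trended variance. Members higher were thus 1, 2, 2 and 1 without the dimmest 25%, without the dimmest 50%, with the trended variance and with array weights. In the same order, pathway genes higher were 3, 3, 4 and 2, and monolignol genes lower 1, 2, 1 and 1. Pathway genes lower were 3, 4 and 4 in the first 3 of these. Cyclic loess gave 2 pathway genes higher, the trended variance 1 monolignol gene higher and 2561 loci higher, and the photosynthesis covariate 1 monolignol gene lower. At an adjusted p under 0.01, 669 loci were higher and 1295 lower. With a change of at least 1, 560 were higher, 999 lower and 0 members lower.

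Without single arrays, differences ran from -0.076 to 0.0046 for CASP2. Counts ran from 892 to 1309 loci higher and 1571 to 2048 lower, 0 to 1 pathway genes in each direction, 3 to 4 CASP-like genes higher, 4 to 5 lower, and 0 to 1 monolignol genes lower. The causes of these moves were not tested. The dim-locus filters adjust over fewer loci and also refit the variances. The SE of MYB36 was 0.145 over all loci and 0.130 without the dimmest 50%. The parts of these effects were not separated.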
